A study of Caenorhabditis elegans with 20 samples.

Results

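The Hedgehog-related and patched-related genes of *Caenorhabditis elegans* were described here by their level of messenger RNA in whole L4-stage animals, the last larval stage before adulthood. Members were chosen by symbol alone: genes whose symbol starts with *grl-*, *grd-*, *wrt-*, *ptr-* or *ptc-*, together with *hog-1* and *qua-1*. The rule found 85 protein-coding genes of the 27375 genes in the deposited tables, of which 31 are *grl* genes, 16 *grd*, 10 *wrt*, 24 *ptr* and 2 *ptc*. In a second symbol table it also found 3 pseudogenes, *grd-17*, *grl-32* and *ptc-2*, whose values are given apart from the 85. The study sequenced poly(A)-selected RNA from hermaphrodites of 5 genotypes in air, with 4 libraries from biological replicates for each. The genotypes were *egl-9(sa307)*, *egl-9(sa307)* with *hif-1(ia4)*, strain OR3350, *hif-1(ia4)* and wild type (N2). OR3350 combines both of these mutations with *unc-119(ed3)* and the integrated transgene *odIs131[hif-1::gfp, unc-119(+)]*, a single line that makes HIF-1::GFP from a genomic fosmid. *egl-9* encodes a prolyl hydroxylase that uses oxygen to target the transcription factor HIF-1 for destruction, and its loss leaves HIF-1 active in air where *hif-1* is intact or supplied by the transgene.

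The value used for each gene was the authors' mean log2 CPM, the binary logarithm of its mean read count over libraries, scaled to library size (CPM). Turned back into CPM, the values of all genes add up to 1002354, so they were read as logarithms of a mean CPM. The mean log2 CPM was the same in all 4 deposited tables. It has no value per library, so it carries no SD and no n, and differences between genes were described and not tested. It also merges the genotypes: a mean does not give the level in *egl-9* mutants, or in any other genotype, and levels were not compared between genotypes here. Read depth per library was not in the values used here. The animals were extracted whole, so a low level from few cells and a low level in many cells cannot be told apart.

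Hedgehog proteins are secreted signals, and Patched is the membrane protein that receives them in flies and vertebrates. Nematodes lack a clear ortholog of Hedgehog itself, but they have large families of secreted relatives, named warthog (*wrt*), groundhog (*grd*), ground-like (*grl*) and quahog (*qua-1*) after the domain at their amino terminus. Several of them also carry the carboxy-terminal Hog domain, which cleaves the precursor in Hedgehog, and HOG-1 has the Hog domain without a known signal domain. The *ptc* genes encode Patched proteins, and the *ptr* genes encode patched-related membrane proteins with a sterol-sensing domain. Many of these genes are active in the epidermis, in glia and in the tubes that open through the cuticle, and loss of several of them disturbs molting.

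Most of the 85 members were expressed at L4, but the families differed in how many. A mean log2 CPM of at least 0, which corresponds to 1 CPM, was reached by 62 of the 85 members (72.9%), against 13428 of 19196 protein-coding genes (70.0%). The median member was at 3.48 on the log2 CPM scale, or 11.2 CPM, and the median protein-coding gene was at 2.91, or 7.51 CPM. High levels, a mean log2 CPM of at least 5, were found for 26 members (30.6%) and for 27.1% of protein-coding genes. As a set, the members therefore lay close to coding genes in general. The 85 genes added up to 4099 CPM, and the 5 highest of them made up 49% of that sum.

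The patched-related genes and those for secreted proteins were spread differently along the scale. Of the 26 *ptr* and *ptc* genes, 25 (96.2%) reached a mean log2 CPM of 0, with a median level of 31.9 CPM. Of the 59 *grl*, *grd*, *wrt*, *hog-1* and *qua-1* genes, 37 (62.7%) did so, with a median level of 2.81 CPM. Quartiles were at 3.70 and 6.09 log2 CPM for the *ptr* and *ptc* genes and at -1.95 and 4.43 for the genes of secreted proteins, so the *ptr* and *ptc* genes sat in a narrower range. The secreted proteins nevertheless held the 3 highest members of all, *grl-16*, *grd-14* and *grd-5*.

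**Figure D1:**
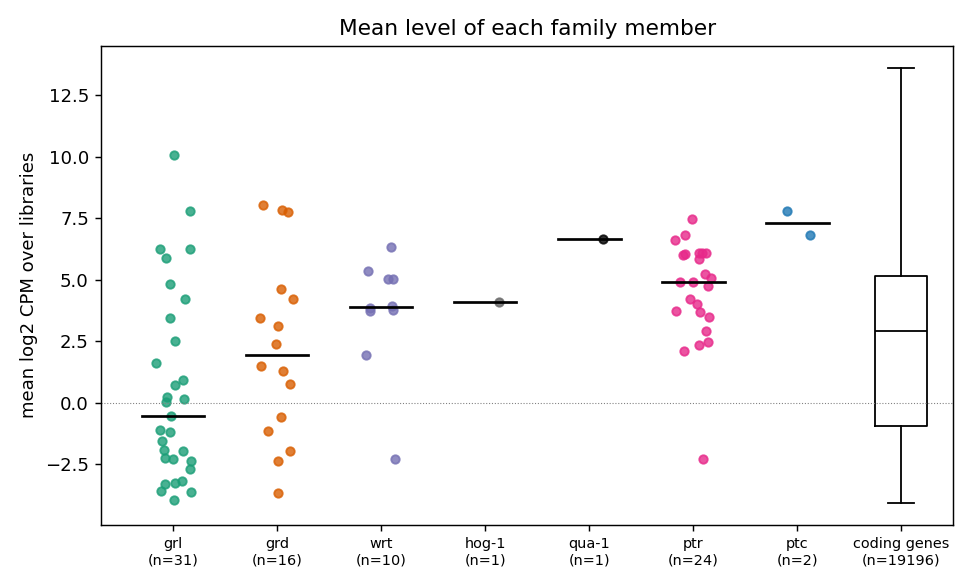
Mean log2 CPM of each member, 1 point per gene, by family, with a black line at the family's median, beside a box for 19196 protein-coding genes (quartiles, median and whole range). The *ptr* genes cluster between about 2 and 7.46 with *ptr-9* alone below 0, whereas the *grl* genes run over nearly the whole range, from -3.97 to 10.07.

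Among the ground-like genes, the largest family, a few were abundant and most were low. Their median was -0.55 log2 CPM, 15 of the 31 (48.4%) reached 0, and 8 lay above the median protein-coding gene. *grl-16* had the highest level of all members, 10.07 log2 CPM or 1075 CPM, which is above 99.3% of protein-coding genes. This gene lies on chromosome I from 572173 to 575120 (WBcel235, minus strand), codes for 453 residues and by itself gave 26.2% of the summed CPM of the members. *grl-4* followed at 7.79 log2 CPM (221 CPM), and then *grl-21* at 6.26 and *grl-7* at 6.25. GRL-21 has been placed in a pathway with the nuclear receptor NHR-25 that controls lipid storage, and GRL-7 is a matrix protein whose removal depends on PTR-18. *grl-5* was at 5.89 and *grl-15* at 4.83 log2 CPM, the fifth and sixth of the family.

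Ground-like genes that serve as markers of small cell groups were near 0 on the log2 CPM scale. *grl-2*, whose promoter marks the excretory duct and pore, was at 0.14 log2 CPM (1.1 CPM). Its exons share 61 bp with *T16G1.9*, a gene on the opposite strand at 6.41 log2 CPM. Whether reads of *T16G1.9* entered the level of *grl-2* was not tested. *grl-18*, whose promoter marks socket glia of the inner labial organs, was at 0.02 log2 CPM (1.01 CPM). These are levels in a whole animal, of which such cells are a small part. At the bottom of the family, *grl-19* was at -3.65 and *grl-29* at -3.97 log2 CPM, and the lowest value that any gene of the tables takes is -4.09. Within 0.5 of that lowest value lay 3 *grl* genes (9.68% of the family), against 9.72% of protein-coding genes, and no member was exactly at it.

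Groundhog genes had the same kind of spread, with 3 abundant members and several that were barely detected. The median of the 16 genes was 1.93 log2 CPM, and 11 of them (68.8%) reached 0. *grd-14* (chromosome X) was at 8.03 log2 CPM or 261 CPM, *grd-5* (chromosome V) at 7.82 or 227 CPM, and *grd-6* (chromosome V) at 7.77 or 218 CPM. No other groundhog gene came within 3 log2 units of these. The next were *grd-3* at 4.63, *grd-1* at 4.21 and *grd-2* at 3.43 log2 CPM. GRD-5 is among the shortest proteins of all families with 102 residues, whereas GRD-1 is the longest groundhog protein with 1137. The lowest groundhog genes were *grd-7* at -2.39 and *grd-8* at -3.68 log2 CPM.

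Warthog genes were more even. Of the 10 genes, 9 (90%) reached 0, the median was 3.89 log2 CPM, and 8 lay above the median protein-coding gene. *wrt-4* was highest at 6.33 log2 CPM (80.6 CPM), followed by *wrt-6* at 5.36 (41.1 CPM). *wrt-1* and *wrt-10* were at 5.02 and 5.01 log2 CPM. WRT-10 is a signal from the hypodermis that acts through PTC-1 on the quality of oocytes in ageing mothers. *wrt-5*, which is needed for embryonic morphogenesis, was at 3.93 log2 CPM, and *wrt-2*, whose promoter is used to mark seam cells of the epidermis, was at 3.84. The lowest were *wrt-3* at 1.93 and *wrt-7* at -2.28 log2 CPM, and *wrt-7* was the only warthog gene below 0.

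Each of the remaining secreted relatives has a family of its own. *qua-1*, which is required for molting, lies on chromosome II and was at 6.64 log2 CPM (99.8 CPM), above 90.4% of protein-coding genes. *hog-1*, on chromosome X, was at 4.08 log2 CPM (16.9 CPM), above 62.1%.

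**Figure D2:**
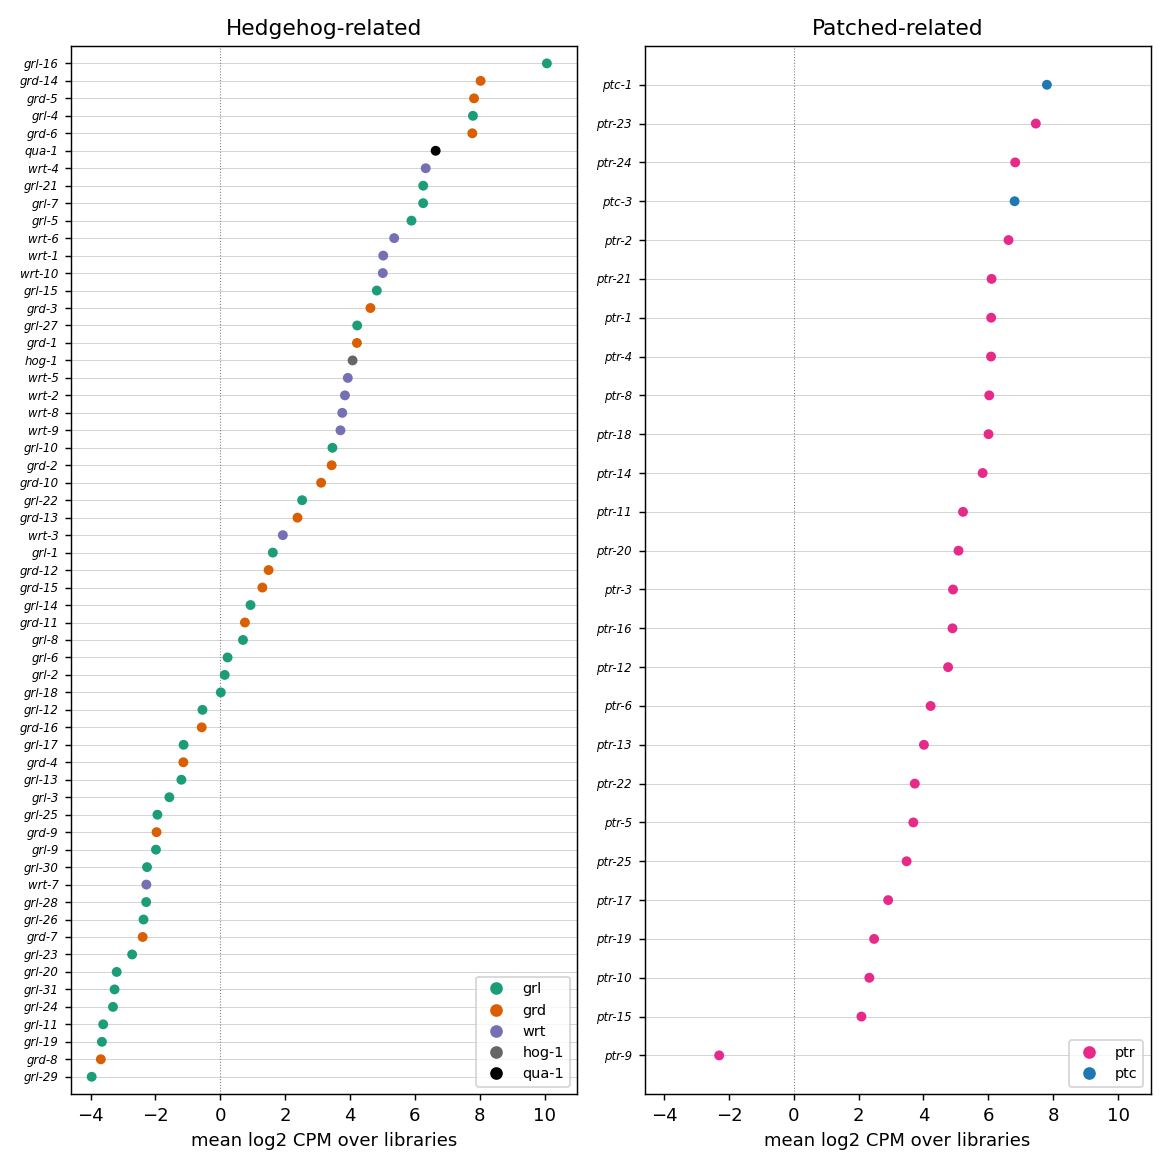
Mean log2 CPM of all 85 members, ordered by level, with Hedgehog-related genes on the left and patched-related genes on the right and 1 colour per family. The Hedgehog-related genes fall away steadily from *grl-16* at 10.07 to *grl-29* at -3.97, while 25 of the 26 patched-related genes lie above the dotted line at 0.

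Both Patched genes were among the 10 highest members. *ptc-1*, which keeps the syncytial germ line intact by acting in cytokinesis, lies on chromosome II and was at 7.81 log2 CPM (224 CPM), above 96.2% of protein-coding genes. *ptc-3*, an essential gene needed for osmoregulation, was at 6.81 log2 CPM (112 CPM), above 91.4%. Their proteins are also the longest of all members, with 1408 residues for PTC-1 and 1367 for PTC-3. The pseudogene *ptc-2*, on chromosome II from 6083473 to 6085924, was at -3.48 log2 CPM (0.0893 CPM), 0.60 above the lowest value of the tables.

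Patched-related genes were expressed almost without exception. Of 24 *ptr* genes, 23 (95.8%) reached a mean log2 CPM of 0, 20 lay above the median protein-coding gene, and the median was 4.90. *ptr-23*, which acts with *osm-8* in the response of the epidermis to osmotic stress, was highest at 7.46 log2 CPM (177 CPM). *ptr-24*, which has been placed in the same pathway as GRL-21, was at 6.83 (114 CPM), and *ptr-2* at 6.62 (98.5 CPM). The next genes lay close together, with *ptr-21* at 6.10, *ptr-1* at 6.09 and *ptr-4* at 6.08 log2 CPM. PTR-4 helps to organise the apical extracellular matrix, and *ptr-18*, named above for GRL-7, was at 6.01.

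At the other end of the family, *ptr-10*, whose promoter is widely used to mark glia, was at 2.33 log2 CPM (5.03 CPM). *ptr-15* was at 2.09 and *ptr-9*, on chromosome III, at -2.30 log2 CPM. The gap between these last 2 genes, more than 4 log2 units, was wider than the distance from *ptr-15* to the family's median.

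CPM counts reads without dividing by gene length, and the families differ in length. The median coding length corresponds to 212 residues for *grl*, 329 for *grd*, 482.5 for *wrt* and 900.5 for *ptr* proteins. Across the 85 members, which share the same libraries, Pearson's r between mean log2 CPM and log2 coding length was 0.40, given as a description. Dividing by coding length lowered the long *ptr* and *ptc* genes and raised the short secreted proteins. Per kb of coding sequence, the median was 3.59 on the log2 scale for the 26 *ptr* and *ptc* genes and 1.72 for the 59 genes of secreted proteins. This order did not hold for every family. The *ptr* median per kb was 3.45, above those of *grd* (1.95) and *grl* (-0.40). It was below the *wrt* median (3.94) and below *hog-1* (4.52) and *qua-1* (4.83), and the *ptc* median was 5.25.

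The order of single genes depended on this choice. Per kb of coding sequence, the 3 highest members were *grl-16* (9.63 on the log2 scale per kb), *grd-5* (9.53) and *grd-14* (9.14). Of the 10 highest members by log2 CPM, 6 were also among the 10 highest per kb. *ptc-1*, *ptr-24*, *ptc-3* and *qua-1* left that group, with *ptc-1* at 5.73 per kb, and *grl-21*, *grl-5*, *grl-7* and *grl-15* entered it. *ptr-23* was the one *ptr* or *ptc* gene among the 10 highest on both scales.

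**Figure D3:**
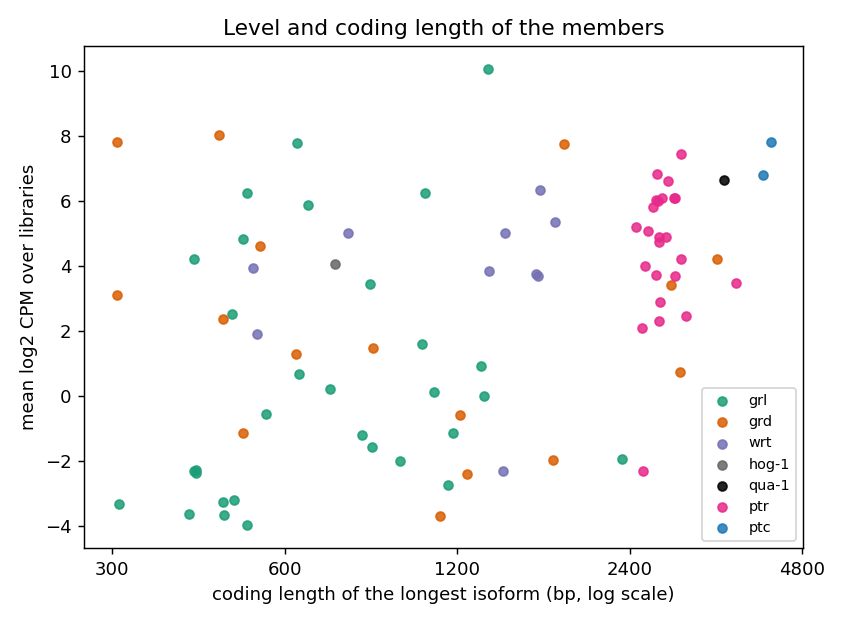
Mean log2 CPM against coding length of the longest isoform in bp (log axis), 1 point per member, coloured by family. The *ptr* genes form a tight column near 2700 bp, and the short *grl* and *grd* genes cover the scale from below -3 to above 8.

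The number of members differed between chromosomes, and it was not set against the number of all genes on each. Chromosome V holds 32 of the 85, including 19 of the 31 *grl* genes, and their median was 0.73 log2 CPM. Chromosome II holds 11, with both *ptc* genes, 6 *ptr* genes, 2 *wrt* genes and *qua-1*, and there the lowest member was at 4.01 log2 CPM. Chromosome I holds 9 members, 7 of them *ptr* genes, with a median of 5.22. Because the families differ in level, these medians were not separated from the mix of families on each chromosome.

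In 7 places 2 members were direct neighbours among protein-coding genes, and their levels could be close or far apart. *wrt-1* and *wrt-10* lie on opposite strands with 15 bp between them, at 5.02 and 5.01 log2 CPM. *grd-14* and *grd-4* lie on the same strand of chromosome X with 184 bp between them, and differed by 9.17 log2 units, with *grd-14* at 8.03 and *grd-4* at -1.14. *grd-13*, *grd-3* and *grd-10* form a row on chromosome IV, at 2.38, 4.63 and 3.11 log2 CPM. Of *grl-9* and *grl-8*, on chromosome V with 136 bp between them, *grl-9* was at -1.98 and *grl-8* at 0.70 log2 CPM. The neighbours were named after their values were seen.

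Gene models of some members overlap those of other genes, which makes their levels less certain. Exons of 27 members share bases with another gene of the tables, 25 of them with a gene on the opposite strand, and the sources used here do not say whether the counting used strand or how reads on more than 1 gene were treated. The median of these 27 members was 0.93 log2 CPM, and that of the 58 members without such an overlap was 4.22. Most of the 27 were *grl* or *grd* genes, the families with the lowest medians, so the medians also differ in family make-up. The share of all protein-coding genes with such an overlap was not counted. For 24 members an overlapping gene codes for protein, and for 17 of those it had the higher level. The same count was not made over all protein-coding genes, whose median of 2.91 is above the 0.93 of these 27 members. *grl-10* (3.46 log2 CPM) shares 18 bp, 1.85% of its exonic bases, with *rpl-39*, a ribosomal protein gene at 9.24. *grd-15* (1.30 log2 CPM) shares 112 bp, 16.4% of its exonic bases, with *cyn-15* at 5.82, and *wrt-3* shares 41.1% with a pseudogene on its own strand. The shares of *grd-15* and *wrt-3* were the largest of all overlapping pairs, and most others were far smaller. Whether reads of overlapping genes entered the members' levels was not tested. These 3 genes were singled out after their values were seen.

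**Figure D4:**
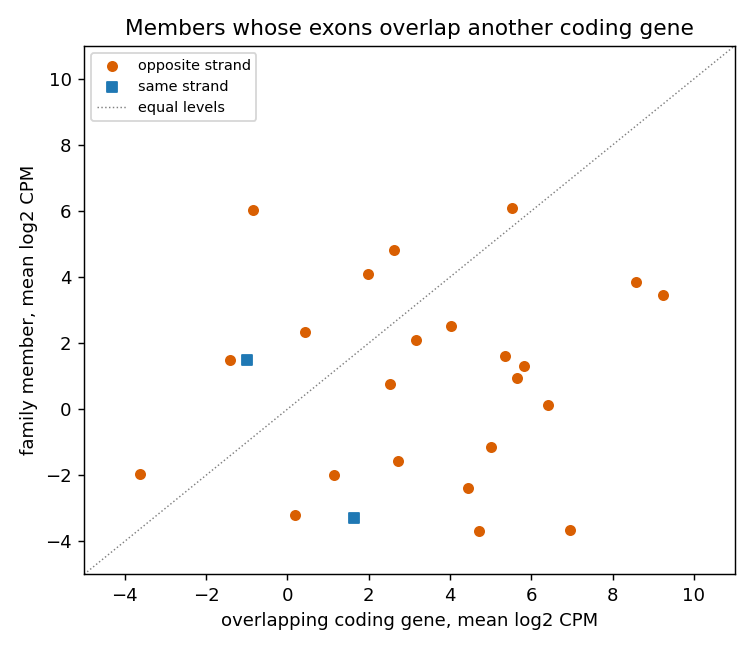
Mean log2 CPM of each family member against that of the protein-coding gene whose exons it overlaps, 1 point per pair, with the dotted line at equal levels. Most points lie below the line. The neighbour was higher for 17 of the 24 members, a count that was not made over all coding genes.

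The pseudogenes were low. *grl-32* (chromosome V from 3560271 to 3560508) was at -3.30 log2 CPM and *grd-17* (chromosome V from 16990810 to 16991459) at -1.17. The level of *grd-17* exceeded those of *grd-9*, *grd-7* and *grd-8*, the lowest of the 16 protein-coding groundhog genes.

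Other genes linked to the pathway lay within the range of the *ptr* genes, between 3.30 and 5.71 log2 CPM for all 6 on the list. *che-14*, which is related to Dispatched and acts in apical secretion, was at 3.30, and *daf-6*, a patched-related gene that shapes the lumen of sense organs, was at 3.73. The NPC1-related genes *ncr-1* and *ncr-2*, which move cholesterol, were at 5.11 and 4.45 log2 CPM. *scp-1*, related to the sterol sensor SCAP, was at 5.71, and *tra-1*, the worm's GLI-type factor, which acts in sex determination, was at 5.66.

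Genes that mark tissues were detected for every tissue on the list, as for whole animals. Hypodermal markers (*dpy-7*, *rol-6*, *bli-1* and *noah-1*) ranged between 4.90 and 7.46 log2 CPM. Markers of the intestine lay between 4.40 and 11.57, of muscle and pharynx between 8.51 and 12.46, of neurons between 2.53 and 6.87, of the germ line between 6.51 and 9.35, and of sperm between 2.94 and 5.74. *col-19*, a collagen gene of the adult cuticle, was at 10.13 log2 CPM, and the molting regulators *nhr-23*, *grh-1* and *nhr-25* were at 5.94, 3.53 and 2.57. The *ptr* median of 4.90 fell at the lower end of the hypodermal markers, which is set by *dpy-7* alone. It also fell within the ranges for intestine, neurons, sperm and the molting regulators, so it does not point to a tissue.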

How the data were processed

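By the paper's methods, the authors aligned reads against WS245 and obtained gene counts with STAR 2.5.1a, which they normalized in edgeR. The version of edgeR that the authors ran is not given in these sources. Libraries were prepared and sequenced at Genewiz or RUCDR, on different Illumina instruments, and the paper does not say which libraries went to which centre. The deposited tables, 1 for each of 4 comparisons of genotypes, list 27375 genes with the authors' mean log2 CPM, which was identical in all 4 and was the only column used. The other 4 columns hold the authors' own log2 fold changes, likelihood ratios, p-values and FDR, and were not used, so nothing was tested between genotypes. Library sizes and values per library were not used here, and the libraries that enter the mean are not named in the tables.

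Symbols were joined by WormBase identifier (25024 genes had one). Biotypes, coding lengths (longest isoform, 85 of 85 members) and positions came from the Ensembl annotation of WBcel235, and pseudogenes were matched to RefSeq by position. Pathway and marker lists were those in the text. Genes were named as the 6 highest and 2 lowest of each of *grl*, *grd*, *wrt* and *ptr*, all *ptc* genes, *hog-1*, *qua-1* and members of known use. Members and lists were chosen with earlier results of these data known. Computation used Python 3.11.15, numpy 2.4.6 and pandas 2.3.3, and was tested on simulated data.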

Additional observations from a re-analysis of the deposited data

How the results depend on the processing

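With a minimum mean log2 CPM of 1 in place of 0, 56 of the 85 members were counted as expressed, and with -1, 64, against 62. Symbols of the RefSeq table gave 88 genes in place of 85, the addition being 3 pseudogenes. Of the 10 highest members by log2 CPM, 6 stayed among the 10 highest once levels were divided by coding length, and the 4 that left, *ptc-1*, *ptr-24*, *ptc-3* and *qua-1*, have long coding sequences. No paired analysis was possible because the values are means over libraries, with no column per library, and for the same reason no replicate could be left out. The low end is limited: the authors' mean does not fall below -4.09, a value shared by 161 genes. The order of genes near that value was therefore not interpreted, and what sets it was not tested.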
